A study of Mus musculus with 8 samples.

Results

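The 9 genes described here make glutathione or defend membranes against lipid peroxidation without GPX4: *Slc7a11*, *Slc3a2*, *Gclc*, *Gclm*, *Gss*, *Gsr*, *Aifm2*, *Gch1* and *Dhodh*. They were chosen by name, from what their products do, with earlier results of these data known. Every H3K4me3 peak assigned to them was kept. Together they held 23 of the 35486 listed peaks, and they were 9 of the 20871 genes with a listed peak. H3K4me3 is a histone mark that lies mainly at gene promoters. It was measured by an assay that the paper names CUT&Tag. As the paper's protocol describes it, an antibody against the mark directs a nuclease to cut out the DNA beside it. Sequenced fragments therefore gather where the mark lies.

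Of the 8 libraries in the series, the 4 H3K4me3 libraries were analysed here, and the 4 H3K27ac libraries were not used. All were made from sorted CD45-CD31-EpCAM+ cells of autochthonous mouse lung tumors, 10 weeks after intranasal Ad-Cre, from mice that were 8 to 10 weeks old at infection. The KL group (replicates 1 and 2) carries floxed *Lkb1* (Lkb1fl/fl), the gene listed under its symbol *Stk11*. The KLG4 m/m group (replicates 3 and 4) also carries a *Gpx4* allele whose rox-flanked exons are cut out by a tamoxifen-dependent Dre recombinase that Cre switches on. Both groups received Ad-Cre and tamoxifen, which was given for 2 weeks from week 5 and followed by 3 weeks of rest, so the loss of *Lkb1* is shared and *Gpx4* is the difference. Ad-Cre acts in whichever lung cells it infects and not through the promoter of 1 cell type, and the engineered *Gpx4* allele also carries an inserted recombinase cassette. The legend of the CUT&Tag panels gives 2 mice per group, as the labels number the libraries, so each library was taken as 1 mouse. The protocol counts 3 mice in all, too few for 4 libraries of 1 mouse each if both groups are meant. Whether the libraries are separate mice is thus not settled, and the spreads and p-values given below may not be those between mice.

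Tumor cells take up cystine through system xc-, a pair of SLC7A11, the transporter, and SLC3A2, the chaperone that carries it to the membrane. Cystine is reduced to cysteine, joined to glutamate by glutamate-cysteine ligase (catalytic subunit GCLC, modifier subunit GCLM), completed to glutathione by GSS and kept reduced by GSR, and GPX4 spends this glutathione to reduce lipid peroxides. Beside this route, FSP1 (the product of *Aifm2*) regenerates reduced coenzyme Q at membranes, GCH1 opens the synthesis of the antioxidant tetrahydrobiopterin, and DHODH, an enzyme of pyrimidine synthesis, reduces coenzyme Q in mitochondria.

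Promoter sequences from RefSeq (GRCm38.p6) were at hand for 6 of the 9 genes, and not for *Gclc*, *Gsr* and *Dhodh*. The windows reached from 250 bases before the annotated start to 50 bases after it, and 2 motifs were searched for on both strands: the core of the antioxidant response element bound by NRF2 (TGACNNNGC) and the core of the amino acid response element bound by ATF4 (TGATGNAA). These stretches of the first 250 bases are shown because *Slc7a11* and *Gclm* were the members with a match, and *Gch1* because its start-site peak fell in KLG4 m/m. Capitals mark the motif matches, and the sequences read 5′ to 3′ on the gene's strand.
*Slc7a11*, minus strand of chr3:50443614-50443863: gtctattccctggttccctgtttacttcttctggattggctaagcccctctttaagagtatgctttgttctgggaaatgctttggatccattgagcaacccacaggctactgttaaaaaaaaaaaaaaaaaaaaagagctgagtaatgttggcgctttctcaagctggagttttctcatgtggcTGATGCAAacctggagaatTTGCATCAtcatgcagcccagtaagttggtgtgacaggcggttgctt
*Gclm*, plus strand of chr3:122245307-122245556: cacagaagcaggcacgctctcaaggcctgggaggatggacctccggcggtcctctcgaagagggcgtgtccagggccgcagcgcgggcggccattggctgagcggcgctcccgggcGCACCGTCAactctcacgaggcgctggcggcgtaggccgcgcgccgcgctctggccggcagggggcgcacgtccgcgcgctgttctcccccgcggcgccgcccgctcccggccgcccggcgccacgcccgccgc
*Gch1*, minus strand of chr14:47189414-47189663: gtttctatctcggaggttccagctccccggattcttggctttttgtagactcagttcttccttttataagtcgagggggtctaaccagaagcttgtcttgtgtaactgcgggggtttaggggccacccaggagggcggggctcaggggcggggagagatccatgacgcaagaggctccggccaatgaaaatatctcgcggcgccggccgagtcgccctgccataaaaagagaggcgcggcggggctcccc

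The *Slc7a11* window held the ATF4 core at 2 places, 66 to 59 bases before the start on the gene's strand and 47 to 40 bases before it on the other strand. An ATF4 core was found in 3.97% of all 32851 windows and in 2.68% of the 17916 windows of genes with a listed peak, and 0.0700% and 0.0335% of these windows held at least 2. The *Gclm* window held the NRF2 core once, 134 to 126 bases before the start on the other strand. An NRF2 core was found in 12.4% of all windows and in 13.8% of those of genes with a listed peak. The windows of *Slc3a2*, *Gss*, *Aifm2* and *Gch1* held neither set of letters. Windows were matched by gene symbol and not placed against the listed peaks, and which of the 2 *Slc3a2* starts its window covers was not determined. *Gclm* had the window richest in G and C (79.7%, with 48 CpG) and *Slc7a11* the poorest (44.7%, with 4 CpG), while all windows had a median of 52.7% and 7 CpG.

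The libraries held 3244495 to 3463731 reads in listed peaks. Values are given as reads or as CPM, reads scaled to the total in peaks (counts per 1000000) after edgeR's TMM scaling. The 23 peaks of the 9 genes are all 400 bases long, so that their CPM do not differ through peak length. Their start-site peaks lie 0 to 502 bases from a start, and how far the mark extends beyond the 400 bases was not measured. Changes are log2 ratios of KLG4 m/m to KL from edgeR's quasi-likelihood test, with p-values adjusted over all 35486 peaks or, for reads summed per gene, over all 20871 genes, and an adjusted p under 0.05 counts as a call. Of all calls at peaks, 64.1% were lower in KLG4 m/m, or 48.5% after median centring of the libraries. Marker genes differed between the groups as well, and their calls are those of edgeR on reads summed per gene, by which 5.38% of all genes were higher and 9.63% lower. Summed CPM of alveolar type 2 markers were 354 to 373 in KL and 274 to 279 in KLG4 m/m (5 of 8 genes with a peak lower, none higher, no listed peak at *Sftpc*), and those of epithelial markers were 340 to 346 and 299 to 302 (2 of 7 lower, *Epcam* by 0.82 on the log2 scale). Those of leukocyte markers were 145 to 150 and 187 to 189 (3 of 6 higher, no listed peak at *Cd79a*), with *Ptprc*, which encodes CD45, at 54.5, 59.6, 70.0 and 62.9 CPM in KL replicates 1 and 2 and KLG4 m/m replicates 3 and 4. Macrophage markers summed to 119 to 122 and 136 to 143 CPM (1 of 5 higher, no listed peak at *Marco*), endothelial markers to 199 to 224 and 221 to 229 (1 of 5 higher and 1 lower, *Pecam1* at 62.3, 71.7, 70.9 and 81.7), and fibroblast markers to 64.6 to 71.7 and 69.5 to 72.8 (1 of 3 higher, no listed peak at *Col1a2* and *Dcn*). DESeq2 called 1 of the alveolar type 2 and 1 of the epithelial markers and none of the other 4 lists, in which 4, 2, 3 and 1 genes had an unadjusted edgeR p under 0.05. Of all 20871 genes, 6014 had such a p. The part of these marker differences in the results below was not tested, and fewer cells of a type and less mark per cell cannot be told apart.

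The 2 engineered genes do not check the labels, because their start-site peaks lie outside the deleted exons. *Gpx4* had 242 and 236 reads in KL against 304 and 301 in KLG4 m/m and was higher in KLG4 m/m by 0.39 (edgeR adjusted p = 0.00178), a call that DESeq2 did not make (adjusted p = 0.124, with adjusted p from 3.77e-04 to 0.124 over the other settings). *Stk11*, floxed in both groups, had 481 and 507 reads in KL against 587 and 636 in KLG4 m/m (log2 fold change 0.36, edgeR adjusted p = 6.36e-05), which was 0.19 and not called (adjusted p = 0.189) when only its highest peak was used. Its other peak (chr10:79953293-79953693) was higher by 0.62 (edgeR adjusted p = 0.0014 over all peaks). *Stk11* lies near *Gpx4*, whose peak starts at chr10:79889200, and any part of the inserted cassette in these differences was not tested.

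H3K4me3 fell in KLG4 m/m at the start sites of *Gclc* (by 0.78 on the log2 scale) and *Gch1* (by 0.36), and it rose at a peak in the first intron of *Gsr* (by 0.84). At the other 20 peaks, among them every peak of *Slc7a11*, *Slc3a2*, *Gclm*, *Gss*, *Aifm2* and *Dhodh*, no difference passed the threshold. The *Gclc* call was made under each setting that used all 4 libraries, while DESeq2 made neither of the other calls. Counted over the 9 genes, edgeR called 3 of the 23 peaks. Of these, 1 was higher, where 3.1% of all peaks were, and 2 were lower, where 5.52% were. Of the 10 peaks within 1 kb of a start site, none was called higher by edgeR (2.89% of all such peaks) and 2 were lower (8.43%), with 3 at an unadjusted p under 0.05 and none higher by DESeq2. Of the 13 other peaks, 1 was higher (3.29%) and none was called lower (2.82%), with 5 at an unadjusted p under 0.05. Over all 35486 peaks, 8738 had an unadjusted edgeR p under 0.05. The KLG4 m/m libraries were both above the KL libraries at 7 of the 23 peaks and both below at 6, shares to be read against 27.5% and 26.6% of all peaks. Per gene, *Gclc* and *Gch1* were lower (9.63% of all genes) and none was higher (5.38%) by edgeR or DESeq2, with 3 of the 9 at an unadjusted p under 0.05. Over all 20871 genes, 6014 had an unadjusted edgeR p under 0.05. The median log2 fold change was -0.01 over the 23 peaks against 0.01 over all peaks, and 0.03 over the 9 genes against 0.00 over all genes.

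**Figure D1:**
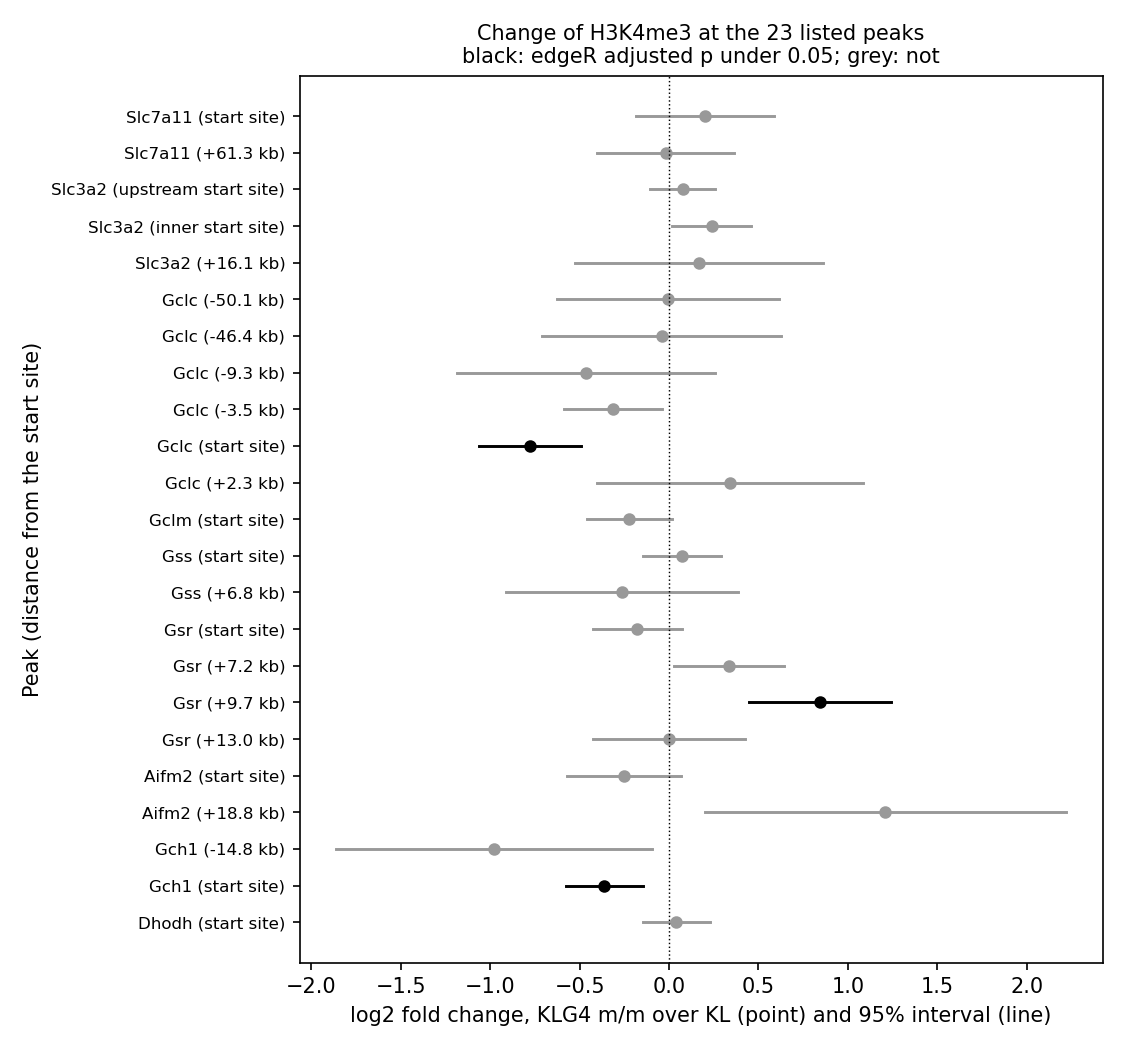
Log2 fold change of H3K4me3, KLG4 m/m over KL (horizontal axis), at each of the 23 listed peaks of the 9 genes (vertical axis, with distance from the nearest annotated start). Points are edgeR estimates, lines are 95% intervals, and black marks an adjusted p under 0.05. The black points are the *Gclc* start site at -0.78, the *Gch1* start site at -0.36 and the *Gsr* intron peak at 0.84, and the widest lines belong to peaks with few reads.

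All 9 genes carried H3K4me3 at a start site. Of their 23 peaks, 10 (43.5%, against 48.1% of all peaks) lay within 1 kb of one, counting 2 start sites of *Slc3a2*. *Dhodh* was the highest at a mean of 93.5 CPM over the 4 libraries, followed by the upstream start of *Slc3a2* at 90.6. The inner start of *Slc3a2* (65.4), *Gch1* (62.8), *Gss* (59.9), *Gclm* (54.9), *Gsr* (49.5) and *Gclc* (46.6) came next, then *Aifm2* (29.4) and *Slc7a11* (19.0). Neighbours in this order had library values that did not overlap in 2 places only, between the upstream and the inner start of *Slc3a2* and between *Aifm2* and *Slc7a11*. The median over all 17073 peaks within 1 kb of a start site was 41.2 CPM, so *Aifm2* and *Slc7a11* lay below it (percentiles 39.9 and 29.5) and the other 8 above, up to percentile 91.4 for *Dhodh*.

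**Figure D2:**
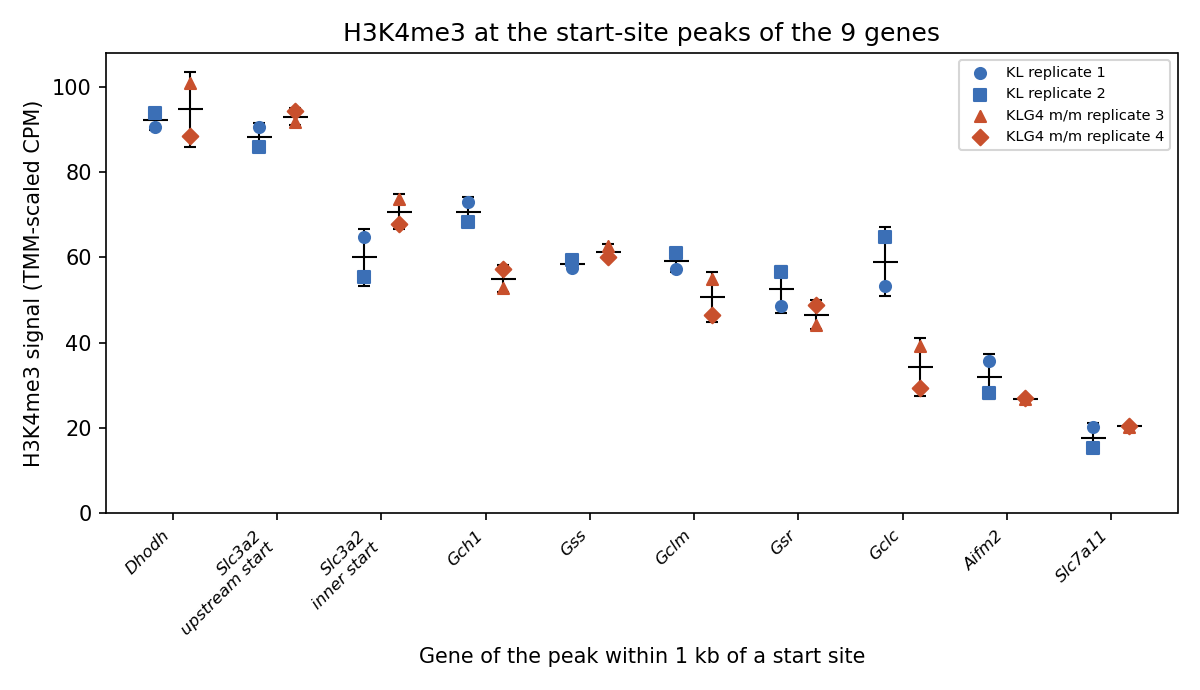
H3K4me3 signal in TMM-scaled CPM (vertical axis) at the 10 start-site peaks of the 9 genes (horizontal axis), with 1 symbol per library, KL in blue and KLG4 m/m in orange; the wide bar is the group mean and the whiskers are the SD (n = 2). *Gclc* has KL libraries at 53.2 and 64.8 and KLG4 m/m libraries at 39.2 and 29.4, the widest separation among these peaks, and *Slc7a11* is the lowest of all.

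The cystine transporter genes showed no called difference. *Slc7a11* had 2 listed peaks of similar height, and its start-site peak (chr3:50397862-50398262) held 70 and 53 reads in KL against 70 and 66 in KLG4 m/m, or 20.1, 15.3, 20.3 and 20.4 CPM. The KLG4 m/m libraries lay just above KL replicate 1, and KL replicate 2 was below the other 3. The log2 fold change was 0.20 (95% interval -0.18 to 0.59, edgeR adjusted p = 0.541). Leaving out KL replicate 2 brought it to 0.016, and leaving out KL replicate 1 to 0.41. The other *Slc7a11* peak lay 61.3 kb into the gene, in exon 8 of 12, and held 72 and 65 reads in KL against 76 and 54 in KLG4 m/m (log2 fold change -0.02, interval -0.40 to 0.36). Summed over both peaks the gene gave 0.09 (interval -0.19 to 0.36, edgeR adjusted p = 0.730).

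*Slc3a2*, which encodes the heavy chain shared by several amino acid transporters, had a peak at each of 2 annotated starts and a weak one in a region annotated as intergenic. The upstream start (NM_001161413.2, chr19:8700475-8700875) held 315 and 298 reads in KL against 316 and 305 in KLG4 m/m, or 90.6, 85.8, 91.6 and 94.4 CPM. Both KLG4 m/m libraries lay just above both KL libraries (log2 fold change 0.08, edgeR adjusted p = 0.642). The inner start (NM_008577.5, chr19:8690614-8691014) held 225 and 192 reads in KL against 254 and 219 in KLG4 m/m. In CPM these were 64.7 and 55.3 against 73.7 and 67.8, with both KLG4 m/m libraries above both KL libraries. The log2 fold change of 0.24 at the inner start (interval 0.02 to 0.46, unadjusted p = 0.0346 by edgeR) missed the threshold at an adjusted p of 0.165. Without KL replicate 2 it was 0.13 (edgeR adjusted p = 0.671). The inner start held 0.714 and 0.644 reads per read at the upstream start in KL against 0.804 and 0.718 in KLG4 m/m, values that nearly met between KL replicate 1 and KLG4 m/m replicate 4. The third peak, 16.1 kb from the nearest start, held 15 to 26 reads. Summed over the gene the log2 fold change was 0.14 (SE 0.0705, edgeR adjusted p = 0.165).

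*Gclc*, which encodes the catalytic subunit of the first and rate-limiting enzyme of glutathione synthesis, had the largest fall among the start-site peaks of the 9 genes. That peak (chr9:77662057-77662457, 240 bases from the start of NR_151778.1) held 185 and 225 reads in KL against 135 and 95 in KLG4 m/m, or 59.0 ± 8.19 and 34.3 ± 6.88 CPM (SD, n = 2). Both KLG4 m/m libraries were below both KL libraries, and KLG4 m/m replicate 4 was the lowest. The fall was 0.78 on the log2 scale (interval -1.06 to -0.49, SE 0.138, edgeR adjusted p = 7.28e-04), a KL signal 1.71 times that of KLG4 m/m. It kept its call under all 7 other settings that used all 4 libraries, DESeq2 included, with adjusted p from 1.32e-04 to 0.0307. Without KLG4 m/m replicate 3 the value was -1.01 and without KLG4 m/m replicate 4 it was -0.59, and neither passed (edgeR adjusted p = 0.307 and 0.337), in fits that called no peak at all.

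The gene had 6 listed peaks, a number that 2.40% of genes reach or pass, against a median of 1. The next highest lay 3.5 kb upstream (chr9:77657924-77658324) and held 145 and 163 reads in KL against 115 and 123 in KLG4 m/m. Its groups did not overlap, and its log2 fold change of -0.31 (unadjusted p = 0.0262 by edgeR) did not pass (adjusted p = 0.142). The start-site peak held 1.28 and 1.38 reads per read of this upstream peak in KL, 1.17 in KLG4 m/m replicate 3 and 0.772 in KLG4 m/m replicate 4, the one library in which the upstream peak was the higher. The peaks 9.3, 46.4 and 50.1 kb upstream and the one 2.3 kb beyond another annotated start held 14 to 30 reads each, overlapped between the groups and had log2 fold changes of -0.46, -0.04, -0.01 and 0.34, none of them called. Summed over the 6 peaks *Gclc* had 403 and 483 reads in KL against 320 and 304 in KLG4 m/m. It fell by 0.45 on the log2 scale (interval -0.62 to -0.28, edgeR adjusted p = 3.32e-05), the lowest p of the 9 genes. DESeq2 called it too (adjusted p = 0.0287), and with only the start-site peak the fall was 0.77. Without KL replicate 2, the library with the most *Gclc* reads, it was -0.31 (edgeR adjusted p = 0.0646), and without KLG4 m/m replicate 3 or 4 it also missed the threshold at values of -0.44 and -0.46.

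*Gclm*, the modifier subunit that raises the efficiency of GCLC, had 1 peak (chr3:122039606-122040006), with 199 and 212 reads in KL against 189 and 150 in KLG4 m/m. Both KLG4 m/m libraries were below both KL libraries, at 54.8 and 46.4 against 57.2 and 61.1 CPM, and the log2 fold change was -0.22 (interval -0.46 to 0.02, edgeR adjusted p = 0.237). Leaving out KLG4 m/m replicate 4 brought it to -0.11, and leaving out replicate 3 to -0.35. The start sites of the 2 subunit genes had near-equal means in KL (59.0 for *Gclc*, 59.2 for *Gclm*), while in KLG4 m/m they were 34.3 and 50.6. The *Gclc* start held 0.930 and 1.06 reads per read at the *Gclm* start in KL against 0.714 and 0.633 in KLG4 m/m, so this ratio was lower in both KLG4 m/m libraries. It is built from the *Gclc* peak already called lower, so it is not a separate result. *Gss*, which completes glutathione, held 200 and 206 reads in KL against 216 and 194 in KLG4 m/m at its start (chr2:155434557-155434957, log2 fold change 0.07, interval -0.15 to 0.29, edgeR adjusted p = 0.725). In CPM these were 57.5 and 59.3 against 62.6 and 60.1, with both KLG4 m/m libraries just above both KL libraries. The other *Gss* peak, 6.8 kb into the gene and in an exon of the antisense gene *Gssos2*, held 19 to 36 reads (log2 fold change -0.26), and CUT&Tag does not tell the strands apart.

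*Gsr*, which encodes the reductase that returns oxidised glutathione to its reduced form, held the only member peak that edgeR called higher. This peak lay in intron 1 of 12, 9.7 kb past the start (chr8:34152987-34153387), and held 40 and 55 reads in KL against 80 and 84 in KLG4 m/m, or 13.7 ± 3.07 and 24.6 ± 1.99 CPM (SD, n = 2). Every KLG4 m/m library was above every KL library, and the log2 fold change was 0.84 (interval 0.45 to 1.24, SE 0.192, edgeR adjusted p = 0.00646), a signal 1.79 times that of KL. DESeq2 did not call it (adjusted p = 0.228, with 0.00178 to 0.228 over the other settings), nor did edgeR without KL replicate 1, where it was 0.63 (adjusted p = 0.0889), or without KLG4 m/m replicate 3 or 4.

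The neighbouring peaks of *Gsr* did not pass. At the start site (chr8:34143768-34144168, 502 bases past the start) 169 and 196 reads in KL stood against 152 and 158 in KLG4 m/m (log2 fold change -0.18, edgeR adjusted p = 0.384). The intron 1 peak 7.2 kb past the start held 84 and 90 reads in KL against 108 and 103 in KLG4 m/m, groups that did not overlap (log2 fold change 0.33, unadjusted p = 0.0349 by edgeR, adjusted p = 0.166). The one 13.0 kb past the start held 51, 50, 44 and 53 reads. Per read at the start site, the called peak held 0.237 and 0.281 reads in KL against 0.526 and 0.532 in KLG4 m/m. The summed reads of *Gsr* (344 and 391 in KL, 384 and 398 in KLG4 m/m) gave 0.14 on the log2 scale (edgeR adjusted p = 0.249), which turned to -0.17 when only the peak within 1 kb of the start was used.

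**Figure D3:**
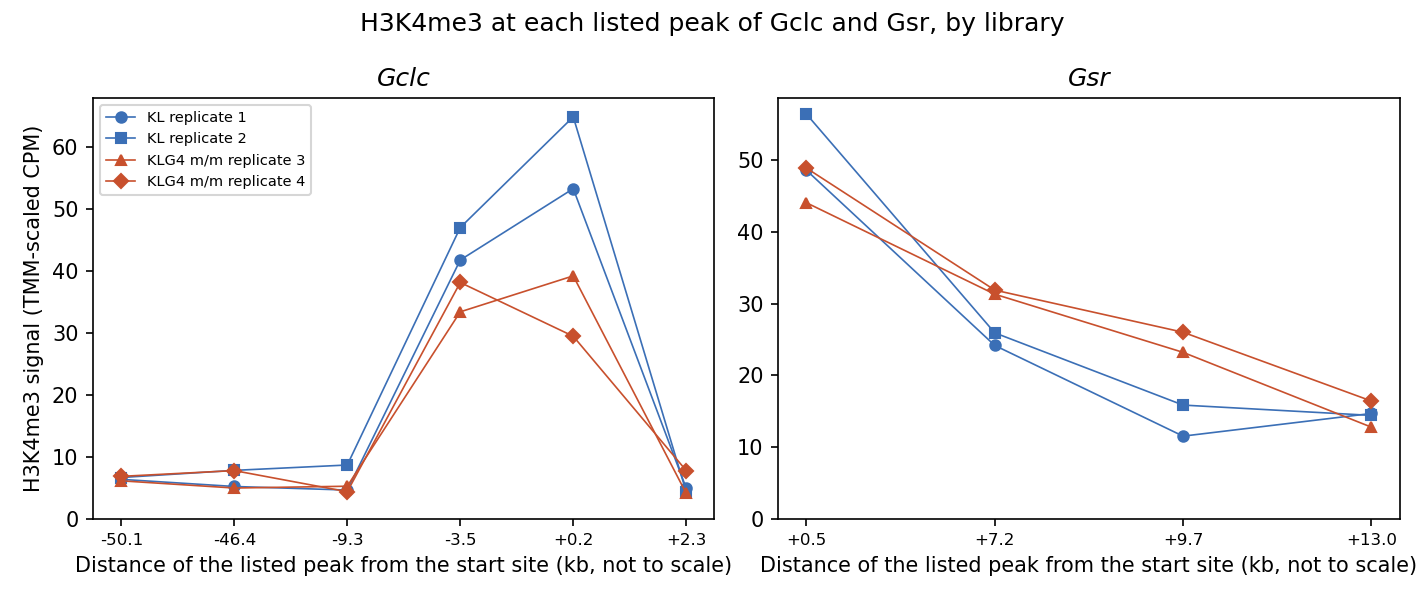
H3K4me3 signal in TMM-scaled CPM (vertical axis) at each listed peak of *Gclc* (left) and *Gsr* (right), by distance from the nearest annotated start (horizontal axis in kb, evenly spaced and not to scale). The *Gclc* peak at 2.3 kb is measured from another annotated start than the start-site peak. Each line joins the peaks of 1 library. At *Gclc* the lines part at the start site, where KL libraries lie at 53.2 and 64.8 and KLG4 m/m libraries at 39.2 and 29.4, and at *Gsr* they part 9.7 kb into the gene, at 11.5 and 15.8 in KL and at 23.2 and above in KLG4 m/m.

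Among the genes that act without GPX4 and glutathione, *Gch1* was lower in KLG4 m/m and the other 2 were not called. The *Gch1* start-site peak (chr14:47426544-47426944) held 254 and 237 reads in KL against 182 and 185 in KLG4 m/m, or 73.1, 68.3, 52.8 and 57.3 CPM, with both KLG4 m/m libraries below both KL libraries. It fell by 0.36 on the log2 scale (interval -0.58 to -0.15, SE 0.106, edgeR adjusted p = 0.0314). This call rests on the setting: DESeq2 (adjusted p = 0.476), median centring (adjusted p = 0.0546) and the removal of any 1 of the 4 libraries (edgeR adjusted p from 0.0661 to 0.337) each ended it, while the value stayed between -0.42 and -0.31. A weak peak 14.8 kb upstream held 16 and 17 reads in KL against 9 and 7 in KLG4 m/m (log2 fold change -0.98, interval -1.86 to -0.09, edgeR adjusted p = 0.157). Summed, *Gch1* had 270, 254, 191 and 192 reads and fell by 0.40 (interval -0.61 to -0.19, edgeR adjusted p = 0.00439), with an adjusted p of 0.199 by DESeq2. It passed without KL replicate 2 and did not without any of the other 3 libraries, at values from -0.44 to -0.35.

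*Aifm2* held 124 and 98 reads in KL against 92 and 87 in KLG4 m/m at its start (chr10:61550978-61551378), where, in CPM, KL replicate 1 stood well above the other 3 libraries and KL replicate 2 just above the KLG4 m/m ones (log2 fold change -0.25, interval -0.57 to 0.07, edgeR adjusted p = 0.325). Without KL replicate 1 that value was -0.074, and without KL replicate 2 it was -0.41. Its other peak (chr10:61587514-61587914) lies in an exon of the next gene, *Macroh2a2*, and held 7, 5, 13 and 14 reads. The distance given for it, 18.8 kb, is from the start of another transcript (XR_004936278.1). The groups did not overlap there and the log2 fold change was 1.21, the largest of the 23 peaks, but at this depth the interval reached from 0.20 to 2.22 and the adjusted p was 0.124 by edgeR. *Dhodh* held 315 and 326 reads in KL against 348 and 286 in KLG4 m/m at its 1 peak (chr8:110334980-110335380), so that the KL libraries lay between those of KLG4 m/m. Its log2 fold change of 0.04 had an interval of -0.15 to 0.23 (edgeR adjusted p = 0.828).

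The wider pathways were read from 7 gene lists with 84 genes, 76 of them with a listed peak. Of these, edgeR called 2 higher, where 5.38% of all genes were, and 6 lower, where 9.63% were, so the lists held no larger share of calls than all genes. The median log2 fold change of reads summed per gene was 0.03. The 8 genes are named because they passed, and not as a change of their lists. In the cysteine supply and amino acid exchange list (12 genes with a peak), the NADPH supply list (12) and the pyrimidine synthesis list (7) none was called by edgeR or DESeq2, while 1, 3 and 2 of them had an unadjusted edgeR p under 0.05, and the medians were 0.07, 0.00 and 0.05. Such a p was found at 6014 of all 20871 genes. Among the 16 genes of glutathione breakdown and thiol exchange, *Ggt5*, a gamma-glutamyl transferase family gene, was higher by 0.42 (293 and 284 reads in KL, 390 and 355 in KLG4 m/m, edgeR adjusted p = 1.95e-04). Its peak 2191 bases from an annotated start was called (log2 fold change 0.52, edgeR adjusted p = 0.0050 over all peaks). The start-site peak of *Ggt5* was not (0.31, edgeR adjusted p = 0.118). In the same list *Abcc1*, an exporter of glutathione conjugates, fell by 0.47 (216, 218, 176 and 126 reads), and the glutaredoxins *Glrx2* and *Glrx5* fell by 0.31 and 0.27. In the coenzyme Q arm (17 genes, median 0.06) *Coq10a*, a coenzyme Q binding protein, fell by 0.33 and *Coq8b*, a kinase-like protein needed for coenzyme Q synthesis, by 0.19. In the tetrahydrobiopterin arm (6 genes, median 0.08) *Pcbd2*, which recycles the pterin cofactor, fell by 0.47 (149, 180, 120 and 108 reads). In the list of other ferroptosis defence (6 genes, median -0.00) *Gpx4* itself was the one call. *Glrx2*, *Glrx5* and *Coq10a* had 1 listed peak each, and the same reads did not pass in the edgeR test over all peaks (adjusted p = 0.0702, 0.0590 and 0.0678). DESeq2 made the call at *Ggt5* (adjusted p = 0.0440) and at none of the other 7, with adjusted p from 0.124 to 0.430. Over the 9 other settings that used all libraries, DESeq2 included, the 8 calls passed in 4 (*Coq8b*) to 8. With 1 of the 4 libraries left out, *Coq10a*, *Coq8b*, *Glrx2* and *Glrx5* never passed, and the others passed in 1 or 2 of 4. *Abcc1* was -0.29 without KLG4 m/m replicate 4, and *Coq8b* was -0.13 without KL replicate 1.

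**Figure D4:**
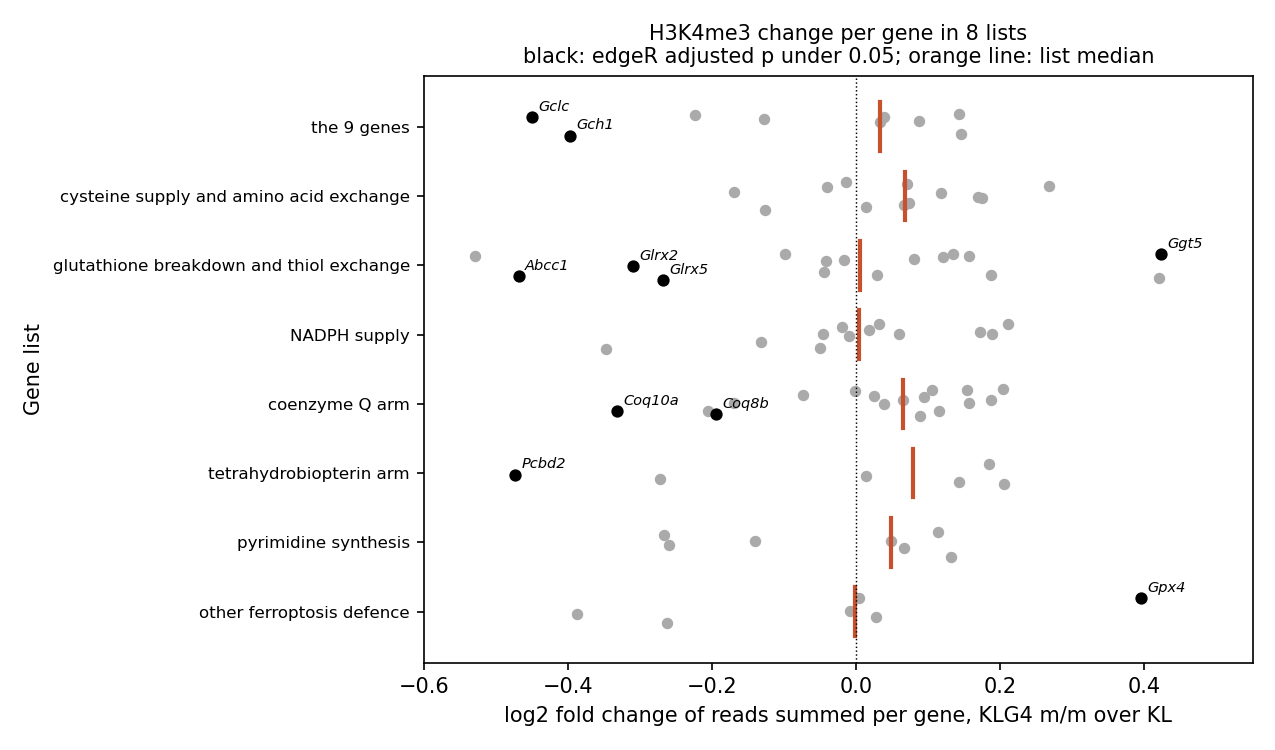
Log2 fold change of H3K4me3 reads summed per gene, KLG4 m/m over KL (horizontal axis), for the genes of the 9-gene set and of 7 pathway lists (vertical axis); each point is a gene, black marks an edgeR adjusted p under 0.05 and the orange line is the list's median. Medians lie between -0.00 and 0.08, with *Gclc*, *Gch1*, *Abcc1* and *Pcbd2* between -0.47 and -0.40 and *Ggt5* and *Gpx4* on the right.

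The genes nearest to *Slc7a11* in their pattern over the 4 libraries, by Euclidean distance of centred log2 CPM, were *Megf9* (0.0114), *Ctbs* (0.0179) and *Trim12a* (0.0218), where the median gene lay at 0.340. Those nearest to *Gclc* were *Gm52066* (0.0257), *Gm34287* (0.0333) and *Shroom3* (0.0335), where the median was 0.532. A pattern of 4 values is matched closely by some genes in so long a list, and these distances carry no test.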

How the data were processed

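H3K4me3 CUT&Tag libraries of 2 KL and 2 KLG4 m/m samples were analysed, grouped by the sample labels. Part of the genotype that both groups share is not reported here. According to the submitters' processing notes, reads were trimmed with Trim Galore 0.6.10, mapped with BWA 0.7.15, freed of duplicates with Picard 2.17.3, and peaks were called with MACS2 2.2.7.1 and annotated with HOMER 4.11.1. The methods name Ensembl 94, a release built on GRCm38, for the mapping. The table names no build, and its positions differ from those of GRCm38 at the start sites of the 6 members with a promoter sequence, so the positions are given as the table has them and promoter sequences were matched by gene symbol only. The authors deposited whole-number counts of reads per peak without normalization, and CPM scaled to the reads in listed peaks, so a uniform gain or loss of the mark could not be seen. The deposited CPM were recovered from the counts with a largest difference of 4.98e-07. The authors' own fold changes, p-values and adjusted p-values in the same table were not used. The deposited distances to the nearest start site, in bp, were used as given.

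Counts were tested with edgeR 4.0.16 (quasi-likelihood, TMM scaling, two-sided, no covariate, common dispersion 0.00133) in R 4.3.3 on all 35486 peaks and on reads summed over the peaks of each of 20871 genes, with Benjamini-Hochberg adjustment and a threshold of 0.05. No peak was filtered out, and all 23 member peaks were tested; 15 of them had a mean of at least 10 CPM. Permuting 2 libraries against 2 cannot give an exact p below 0.333, so no such test was used. The member peaks held 5 to 348 reads per library, which limits the precision at the weak ones, and intervals are those of the fit. The alternatives were DESeq2 1.42.0, RLE factors, total reads, median centring, a minimum mean of 10 CPM, limma 3.58.1 on log2(CPM + 1) and log2(CPM + 0.25), for genes the peaks within 1 kb or the highest peak, and leaving out each library. The members, gene lists and motifs were chosen with earlier results of these data known. The named genes are the 9 members, *Gpx4* and *Stk11*, pathway genes past the threshold and, for *Slc7a11* and the member with the lowest p, the 3 nearest genes with a mean of at least 10 CPM. Beside these, *Ptprc* (CD45) and *Pecam1* (CD31) are named as defining markers, other markers for having no listed peak, *Gssos2* and *Macroh2a2* from the peaks' annotation, and *Epcam*, a sort marker, after its values were seen. No listed peak of another gene lay within 5 kb of a member peak.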

Additional observations from a re-analysis of the deposited data

How the results depend on the processing

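DESeq2 called 277 peaks and 455 genes where edgeR called 3059 and 3132, and among the 9 genes it left 0 higher peaks, 1 lower peak and 1 lower gene (*Gclc*). Median centring left 1 lower member peak. Leaving out each library gave 0 to 2161 called peaks and 0 to 1954 called genes, 0 to 1 higher member peaks, 0 to 1 lower member peaks and 0 to 1 lower member genes. The 0 over all peaks and genes belongs to KLG4 m/m replicates 3 and 4: without either, edgeR called nothing, although 5486 and 5178 peaks and 4186 and 3827 genes had an unadjusted p under 0.05. The prior degrees of freedom then fell from 24.5 to 2.63 for peaks, whereas without either KL replicate they were infinite for peaks and genes. In each of these fits the lone library is assumed to vary like the other group. Calls kept or lost with a library left out therefore also depend on the spread of the pair that remains. Without KL replicate 1 edgeR called 2161 peaks, and without KL replicate 2 it called 1482. Member genes called higher stayed at 0 in every setting run. Of the values at single member peaks under other settings, 137 kept direction and side of the threshold, 3 lost the call and 5 changed sign, and with a library left out 69 kept both, 9 lost the call and 14 changed sign. The values whose sign turned passed in no setting. The *Gsr* peak 13.0 kb past the start was 2.4e-04 with DESeq2 and 0.048 with median centring, and with that centring the exon peak of *Slc7a11* was 0.029 and the *Gclc* peaks 50.1 and 46.4 kb upstream were 0.040 and 0.0075. Using only peaks within 1 kb gave summed *Gsr* -0.17 in place of 0.14, and using the highest peak gave *Gsr* -0.18 and *Slc7a11* -0.025. Without KL replicate 2 the *Gclc* peak 9.3 kb upstream went from -0.46 to 0.057 and the *Gss* peak at 6.8 kb from -0.26 to 0.27. With a library left out, the ranges of values that turned were -0.24 to 0.46 (*Slc3a2*, 16.1 kb), -0.19 to 0.17 (*Gsr*, 13.0 kb), -0.24 to 0.16 (*Slc7a11*, exon), -0.086 to 0.069, -0.39 to 0.28, -0.85 to 0.057 and -0.18 to 0.74 (*Gclc*, 50.1, 46.4 and 9.3 kb upstream and 2.3 kb beyond another annotated start), -0.063 to 0.13 (*Dhodh*) and -0.65 to 0.27 (*Gss*, 6.8 kb). The uncalled start-site peak of *Gsr* kept its sign but ran from -0.28 to -0.066. For summed genes that turned, the ranges were -0.28 to 0.060 (*Aifm2*), -0.066 to 0.13 (*Dhodh*), -0.033 to 0.11 (*Gss*) and -0.032 to 0.23 (*Slc7a11*). The cause of these changes was not tested. No paired analysis was possible because the KL and KLG4 m/m libraries share no replicate number.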
